A study of Mus musculus with 2 samples.

Results

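The F-box genes are the genes whose symbols in the deposited lists are Fbxl, Fbxo or Fbxw followed by a number, and they were compared here around Fbxo31. Of 14480 genes with a methylated region in the longer list of at least 1 of 2 mice, 54 were F-box genes by this rule, 11 of them Fbxl, 27 Fbxo and 16 Fbxw genes. The lists were made from the livers of 1 mouse per genotype, Pemt−/− and Pemt+/+, both fed high fat-high sucrose (HFHS) chow. Pemt−/− mice lack phosphatidylethanolamine N-methyltransferase in the whole body, and Pemt+/+ mice carry the intact gene. Per the sample records both mice received the chow from 5 weeks of age and the livers were taken at 25 weeks, whereas the Methods give shorter feeding for the livers used for enrichment. Methylated DNA was captured with a kit and sequenced, so that methylated stretches appear as regions where reads (tags) pile up. With 1 mouse and 1 library per genotype there was no replicate, so each comparison is between these libraries and carries no test. Genotype, the individual mouse and the library cannot be told apart. The lists hold methylation only, so neither the liver identity of the DNA nor the loss of Pemt could be checked by expression.

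F-box proteins are the part of SCF ubiquitin ligases, built on Skp1, Cul1 and Rbx1, that binds the protein to be tagged for degradation. Fbxl proteins carry leucine-rich repeats, Fbxw proteins carry WD40 repeats, and Fbxo proteins carry other domains or none that are recognised. Fbxo31 binds cyclin D1 and directs it to degradation, and other members act on cyclin E, beta-catenin and regulators of mitosis. Methylation near the start of a gene is generally linked to lower transcription, while methylation inside gene bodies is common in genes that are transcribed.

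The longer lists held 97063 regions with 1582080 tags in Pemt−/− and 131279 regions with 2847831 tags in Pemt+/+. The Pemt+/+ library therefore gave more regions and more tags in all, and values at F-box genes are given beside the same values over all genes. Tags were compared at genes listed in both mice that held 20 tags or more, and at the median of these 12608 genes the tags of Pemt−/− were 0.565 times those of Pemt+/+. A gene was counted as high or low when its ratio was at least 1.5-fold above or below that median. Each region was counted at every gene whose transcript lay within 10 kb, and no region was shared between 2 F-box genes.

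F-box genes held 181 regions with 2865 tags in Pemt−/− and 264 regions with 5629 tags in Pemt+/+, covering 84.9 and 121.1 kb. They made up 0.187% of all Pemt−/− regions and 0.201% of all Pemt+/+ regions. In Pemt−/− 48 members were listed, in Pemt+/+ 52, and in both mice 46. The median region at a member held 13 tags in Pemt−/− and 17 in Pemt+/+, equal to the medians over all regions. The lowest numbers of tags listed were 8 and 9, which set the smallest signal that could be seen. The regions were spread unevenly, since the 5 members with most regions held 145 of the 445 regions. The numbers of regions differed in the direction of the library with more tags: 35 members had more in Pemt+/+, 12 had equal numbers and 7 had more in Pemt−/−.

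Those 7 were Fbxl13, Fbxo5, Fbxo31, Fbxo41, Fbxo43, Fbxo47 and Fbxw15. More regions in Pemt−/− were found at 11.3% of all 14480 genes. The share of all genes with more regions in Pemt+/+ was not computed. Fbxo5 (Emi1) and Fbxo43 (Emi2) are known as inhibitors of the anaphase-promoting complex in mitosis and meiosis. Fbxo43 was listed with a single Pemt−/− region of 12 tags and none in Pemt+/+, and Fbxo47 with a single Pemt−/− region of 9 tags. Since regions with so few tags are close to the smallest listed, a missing region in the other mouse does not show that methylation was absent there. Listed in Pemt+/+ only were Fbxl12 with 23 tags, Fbxl22 with 10, Fbxo2 with 29, Fbxw5 with 24, Fbxw20 with 14 and Fbxw26 with 16. Fbxo2, a receptor for glycoproteins, held its 3 regions upstream of the transcript, at 10, 10 and 9 tags.

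**Figure D1:**
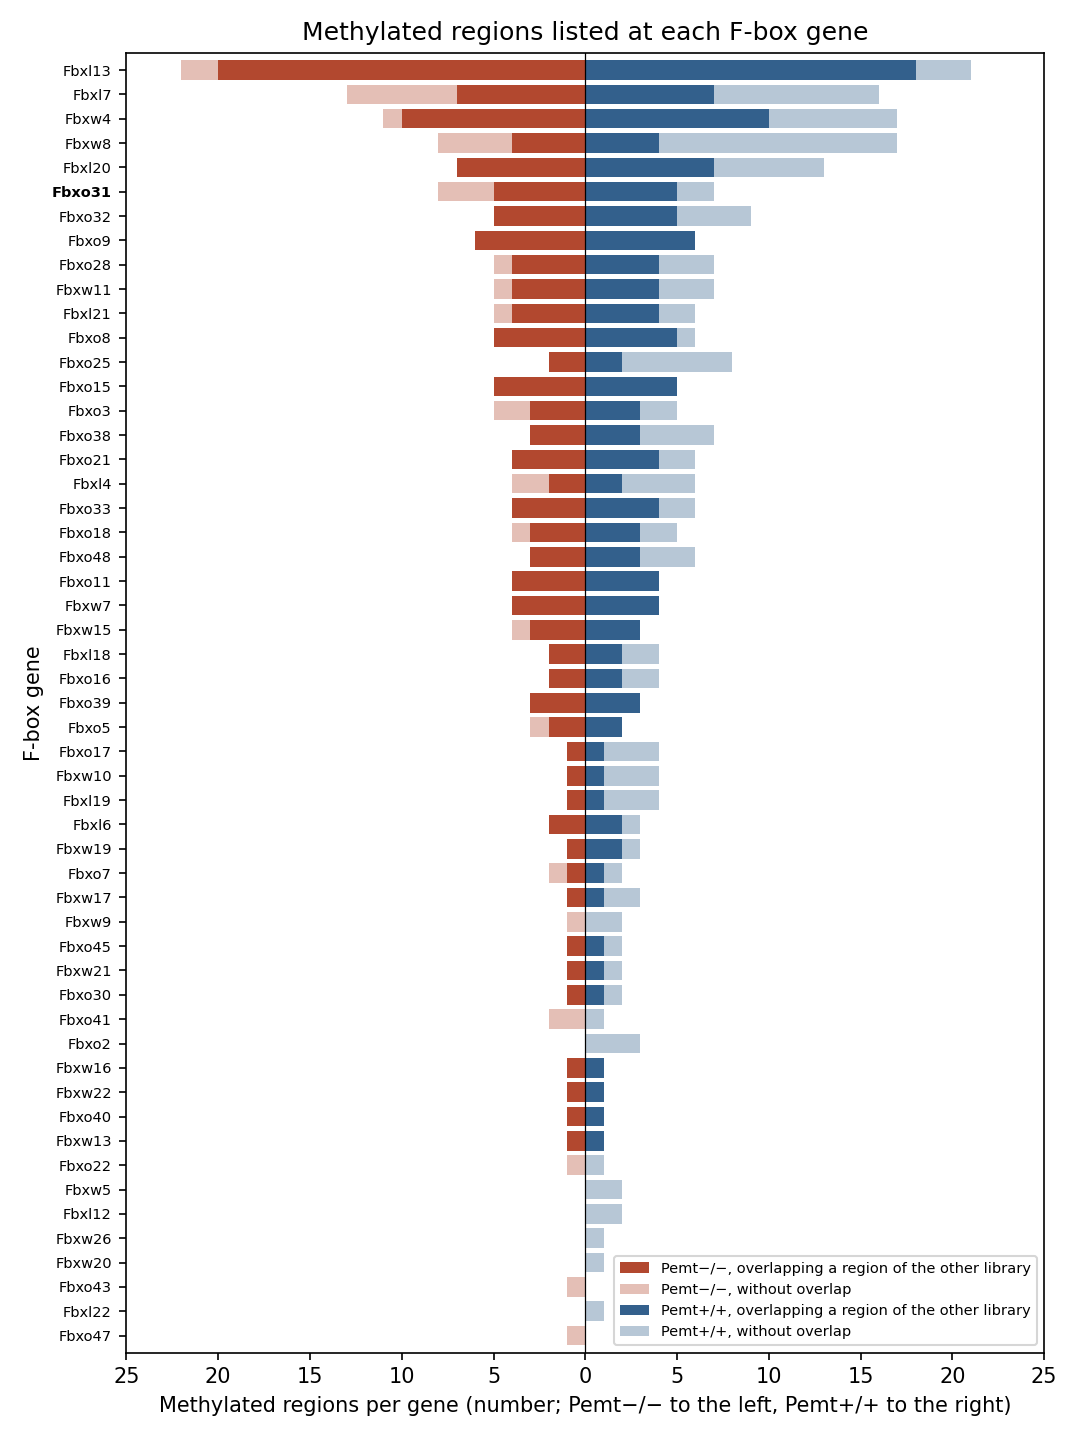
Number of methylated regions at each of 53 of the 54 F-box genes, with Pemt−/− to the left and Pemt+/+ to the right. Dark bars are regions that overlap a region of the other library by at least 1 bp and pale bars are regions that do not. Fbxl13 has the longest bars on both sides, and Fbxo31 (bold) has 8 regions on the left and 7 on the right.

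In Pemt−/− 34 of the 181 F-box regions overlapped no Pemt+/+ region, a share of 18.8% (95% Wilson confidence interval 13.8 to 25.1%), against 16.7% of all regions. In Pemt+/+ 118 of 264 overlapped no Pemt−/− region, a share of 44.7% (38.8 to 50.7%), against 38.4% of all regions. At least 1 such region was present at 20 of the 48 members listed in Pemt−/− and at 41 of the 52 listed in Pemt+/+. Over all listed genes the corresponding shares were 44.8% and 75.7%. The intervals cover counting error only. The first held the share of all regions, and the second lay just above it. Regions without such a partner were the weaker ones, with a median of 10 tags against 14 for overlapping regions in Pemt−/− and 14 against 23 in Pemt+/+. Of the 34 and 118, 11 (32.4%) and 15 (12.7%) lay within 1 kb of a region of the other mouse, against 16.9% and 12.7% of all such regions. By position, 120 of the 181 and 175 of the 264 lay inside or across the end of a transcript, 66.3% in both mice, against 77.6% and 77.0% of all regions with a gene.

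Fbxo31 had 8 regions in Pemt−/−, a number exceeded by 3 members. These were Fbxl13 with 22, Fbxl7 with 13 and Fbxw4 with 11, and Fbxw8 also had 8. In Pemt+/+ its 7 regions placed it 8th, level with Fbxo28, Fbxo38 and Fbxw11 among others. In RefSeq it is a shorter gene than Fbxl13, Fbxl7, Fbxw4 and Fbxw8. Per 100 kb of gene, with 10 kb added on each side, Fbxo31 had 16.2 Pemt−/− regions, the highest value of the 54 members, against a median of 3.82 for the members and 4.71 for all genes. In Pemt+/+ it had 14.2 per 100 kb and was 11th, while the median member had 8.06 and the median gene 6.90. Its summed tags placed it 5th in Pemt−/− and 14th in Pemt+/+.

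Regions listed in 1 mouse held a larger part of the Pemt−/− tags and a smaller part of the Pemt+/+ tags at Fbxo31 than over the other members. Regions without an overlapping region in the other mouse held 36.4% of its 110 Pemt−/− tags, against 12.5% of the 2755 tags of the other F-box genes and 12.2% over all genes. In Pemt+/+ such regions held 19.3% of its 140 tags, against 32.1% for the other F-box genes and 27.4% over all genes. Only Fbxl7 with 70 tags held more Pemt−/− tags in such regions than Fbxo31, which held 40, the same as Fbxw8. By part, Fbxl7 (70 of 165 tags), Fbxw8 (40 of 87), Fbxo7 (13 of 25) and Fbxl4 (17 of 44) lay above Fbxo31. At Fbxo22, Fbxo41, Fbxo43, Fbxo47 and Fbxw9 all Pemt−/− tags were in such regions. A larger part was thus not particular to Fbxo31. The 3 Pemt−/− regions without overlap at Fbxo31 held 20, 11 and 9 tags. The one with 11 tags lay 198 bp from a Pemt+/+ region of 10 tags, and the one with 20 tags lay 5301 bp from the nearest Pemt+/+ region.

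The 5 Fbxo31 regions that overlapped one to one between the mice held, from the upstream side to the downstream side, 13, 11, 13, 22 and 11 tags in Pemt−/−. Their Pemt+/+ partners held 26, 17, 23, 37 and 10 tags. Pemt+/+ was thus higher in 4 of the 5 pairs, as it was in 85.3% of all pairs of regions. The pair downstream of the gene was nearly equal. The ratios of Pemt−/− to Pemt+/+ tags were 0.5, 0.647, 0.565, 0.595 and 1.10, and the first 4 were below the median of 0.682 over all 79393 pairs of regions. The ratio of 1.10 was higher than that of 92.2% of all pairs and more than 1.5-fold above their median, as were 10.4% of all pairs. Its Pemt−/− region lay 9713 bp beyond the 3′ end and was also within 10 kb of 1700018B08Rik.

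**Figure D2:**
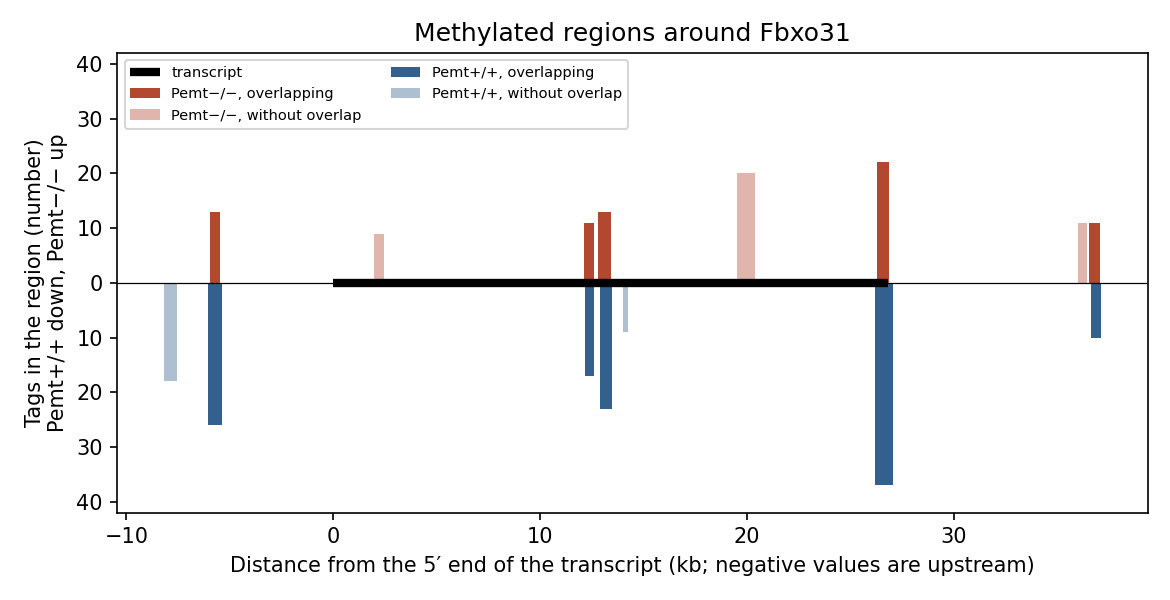
Methylated regions around Fbxo31 by distance from the 5′ end of its transcript in kb, with bar height giving the tags in Pemt−/− (up) and Pemt+/+ (down) and bar width the length of the region. Pale bars have no overlapping region in the other library. The 3 pale bars of Pemt−/− hold 9, 20 and 11 tags, and none of the bars covers the 5′ end.

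No region of either mouse overlapped the 5′ end of Fbxo31. The nearest Pemt−/− region was centred 2196 bp inside the transcript and held 9 tags. In Pemt+/+ the nearest was centred upstream, at −5713 bp, and held 26 tags. That upstream region and its Pemt−/− partner were also within 10 kb of Map1lc3b. Using the regions that were paired with no other gene left 5 regions in Pemt−/− and 3 in Pemt+/+ at Fbxo31.

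The sequences before 3 gene starts are shown because CpG sites are what the capture depends on, and these starts differ in how many they hold. They are RefSeq promoters of the mouse assembly GRCm38.p6, 250 bases before the start, printed 5′ to 3′ on the strand of the gene, with each CpG in capitals. The lists use another assembly (mm9), so these positions are not comparable with those of the regions. Fbxo31 lies on the minus strand (chr8:121578807-121579056) and held 18 CpG. Fbxw15, a member of a run of Fbxw genes on chromosome 9, lies on the minus strand (chr9:109568263-109568512) and held 2. For Fbxw7, on the plus strand (chr3:84951961-84952210, 6 CpG), the start shown is the one of 3 RefSeq starts whose distance to the gene's end, 26987 bases, was nearest to the 25116 to 25610 bases that the lists allow, so the match is not exact.
Fbxo31: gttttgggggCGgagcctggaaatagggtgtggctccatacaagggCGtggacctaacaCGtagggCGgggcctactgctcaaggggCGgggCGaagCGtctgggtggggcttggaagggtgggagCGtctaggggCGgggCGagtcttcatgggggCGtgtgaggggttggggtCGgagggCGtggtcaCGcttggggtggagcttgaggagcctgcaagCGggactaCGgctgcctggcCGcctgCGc
Fbxw7: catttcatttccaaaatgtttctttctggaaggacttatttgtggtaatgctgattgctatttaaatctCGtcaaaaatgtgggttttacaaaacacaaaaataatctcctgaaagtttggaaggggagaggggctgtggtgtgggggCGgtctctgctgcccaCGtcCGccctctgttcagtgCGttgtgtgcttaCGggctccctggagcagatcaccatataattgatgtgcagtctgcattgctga
Fbxw15: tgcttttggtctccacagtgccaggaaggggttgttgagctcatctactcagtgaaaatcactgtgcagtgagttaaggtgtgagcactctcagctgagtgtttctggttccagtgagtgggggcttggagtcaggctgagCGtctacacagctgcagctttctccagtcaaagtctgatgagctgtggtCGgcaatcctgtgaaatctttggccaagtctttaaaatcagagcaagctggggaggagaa

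The table of RefSeq promoters had 50 starts for 39 of the 54 members. The median start of a member held 15 CpG in these 250 bases (the letters CG, which read the same on both strands), and the median of all 32851 starts was 6. At least 10 CpG were found at 36 of the 50 starts, or 72.0%, against 37.8% of all starts. All starts came from 27025 genes, more than the 21900 protein-coding genes of RefSeq. The comparison was therefore not limited to protein-coding genes. At least 1 CpG was present in 92.1% of all starts. Among all starts 21.7% held as many CpG as Fbxo31 or more. In the run of Fbxw genes on chromosome 9, the 7 starts of 6 listed genes held at most 2 CpG. Whether these sites were methylated is not known from the letters, and the number of CpG says nothing about a factor that binds there.

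Regions at the 5′ ends of F-box genes were few. Fbxw7, the receptor for cyclin E, Myc and Notch, was the single member with a region overlapping a 5′ end in Pemt−/− and in Pemt+/+, where 1.9% and 2.6% of all listed genes had one. The region held 15 tags in Pemt−/− and its partner 14 in Pemt+/+, on chromosome 3 from 84755911 to 84756435 and from 84755941 to 84756456 (mm9). The Pemt−/− region was thus the higher one of the pair, by 1 tag. By the lists this 5′ end lay 25116 to 25610 bases from the 3′ end, in a gene of 164209 bases in RefSeq. It is thus the end of a shorter transcript and not the start of Fbxw7 furthest upstream. At 3′ ends, Fbxo31 and Fbxw7 had an overlapping region in Pemt−/− (4.9% of all listed genes) and Fbxl6, Fbxo25, Fbxo31 and Fbxw10 in Pemt+/+ (5.76% of all listed genes). Fbxo31 was the one member with a region over its 3′ end in both mice, with 22 and 37 tags. By the lists its transcript spans 26828 bases, and the gene in RefSeq has 29422. This 3′ end is thus that of the transcript in the lists and may not be the end of the RefSeq gene.

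Distances in the lists gave the 5′ end for 29 members. This needs a region outside the gene, in most cases upstream, so regions upstream are favoured among these members by construction. Fbxw7, with a region across a 5′ end, is not among the 29. Of the 142 Pemt−/− regions and 195 Pemt+/+ regions at these genes, 1 and 2 were centred within 1 kb of the 5′ end. They belonged to Fbxw4, with 10 tags in Pemt−/− and 9 in Pemt+/+ about 0.9 kb upstream, and to Fbxw8, with 9 tags in Pemt+/+. Centred within 2 kb were 8 and 13 regions at 10 members. Fbxo17 held one of the strongest, with 24 tags in Pemt−/− at −1500 bp and 35 in Pemt+/+ at −1508 bp. By edge, 2 of 34 upstream Pemt−/− regions and 4 of 43 upstream Pemt+/+ regions ended within 1 kb of the gene, against 6.61% and 6.17% of the upstream regions of all genes. Within 2 kb there were 8 of the 34 (23.5%) and 11 of the 43 (25.6%), against 15.2% of the upstream regions of all genes in either mouse. The lists put Fbxo5 on the plus strand and RefSeq puts it on the minus strand, so upstream and downstream are uncertain there. The strand was compared for 29 transcripts, not all of them of these 29 members, and 28 had the same strand in both. Members without a RefSeq promoter start, among them Fbxw4 and Fbxw8, could not be compared.

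**Figure D3:**
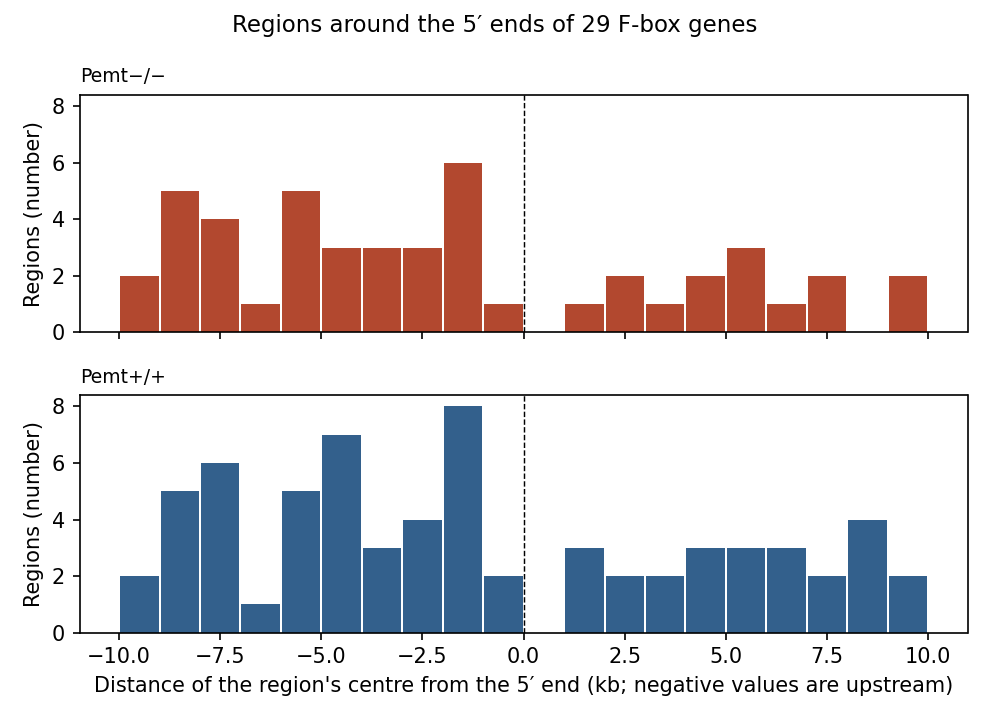
Number of regions by distance of their centre from the 5′ end, in bins of 1 kb, for the 29 F-box genes whose 5′ end could be derived, in Pemt−/− (top) and Pemt+/+ (bottom). No region of either library is centred in the first 1 kb inside these genes. Fbxw7, with a region across a 5′ end, is not among them.

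More regions without a partner in Pemt−/− than in Pemt+/+ were found at 6 members, Fbxo5, Fbxo31, Fbxo41, Fbxo43, Fbxo47 and Fbxw15, and at 10.99% of all genes. Fbxo31 with 3 such Pemt−/− regions was exceeded by Fbxl7 with 6 and Fbxw8 with 4. The opposite was strongest at Fbxw8, which works with Cul7, at 13 Pemt+/+ regions without a partner against 4 in Pemt−/−. Fbxw4 with 7 against 1, and Fbxl20 and Fbxo25 with 6 against 0 each, followed. Of the 46 members listed in both mice, 9 had a partner for every region, as did 20.5% of all genes listed in both. These were Fbxo9, Fbxo11, Fbxo15, Fbxo39, Fbxo40, Fbxw7, Fbxw13, Fbxw16 and Fbxw22. Fbxo9 was the largest of them, with 6 regions in each mouse. Fbxo22, Fbxo41 and Fbxw9 were listed in both mice but had no overlapping region at all, as were 4.02% of all genes listed in both.

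The 5 members with most regions were Fbxl13, Fbxl7, Fbxw4, Fbxw8 and Fbxl20. Fbxl13 led with 364 tags in Pemt−/− and 533 in Pemt+/+, and all but 2 of its 22 Pemt−/− regions overlapped a Pemt+/+ region. Its strongest Pemt−/− region, inside the gene, held 43 tags against 47 in Pemt+/+. Fbxl7, an F-box protein that acts on Aurora A, spread 165 and 275 tags over 13 and 16 regions. Fbxw4, disrupted in the Dactylaplasia mouse, held 190 and 419 tags, of which 57 and 82 fell into a single pair of regions inside the gene. Fbxw8 held 87 and 260 tags, and Fbxl20, known at synapses for its action on Rim1, held 93 and 233. All 7 Pemt−/− regions of Fbxl20 had a Pemt+/+ partner, while 6 of its 13 Pemt+/+ regions had none.

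Summed over the F-box genes, 33.7% of tags came from Pemt−/− (32.7 to 34.7%). These genes held 0.181% of all Pemt−/− tags and 0.198% of all Pemt+/+ tags. The median member of the 46 listed in both mice was at 34.8%, with a range of 12.5 to 61.8%, and the median of the 12608 genes was at 36.1%. Fbxl and Fbxo genes were both at 34.8% (33.0 to 36.7% and 33.3 to 36.3%). Fbxw genes were lower at 30.3% (28.3 to 32.3%), an interval below the other 2. The Fbxl share rested on Fbxl13, without which it was 31.8% (29.6 to 34.0%), close to that of Fbxw genes. The median gene was at 32.8% for Fbxl, 37.9% for Fbxo and 31.2% for Fbxw. In overlapping regions alone the intervals of the 3 groups overlapped at 40.5% for Fbxl (38.3 to 42.7%), 39.0% for Fbxo (37.3 to 40.8%) and 38.1% for Fbxw (35.5 to 40.7%).

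**Figure D4:**
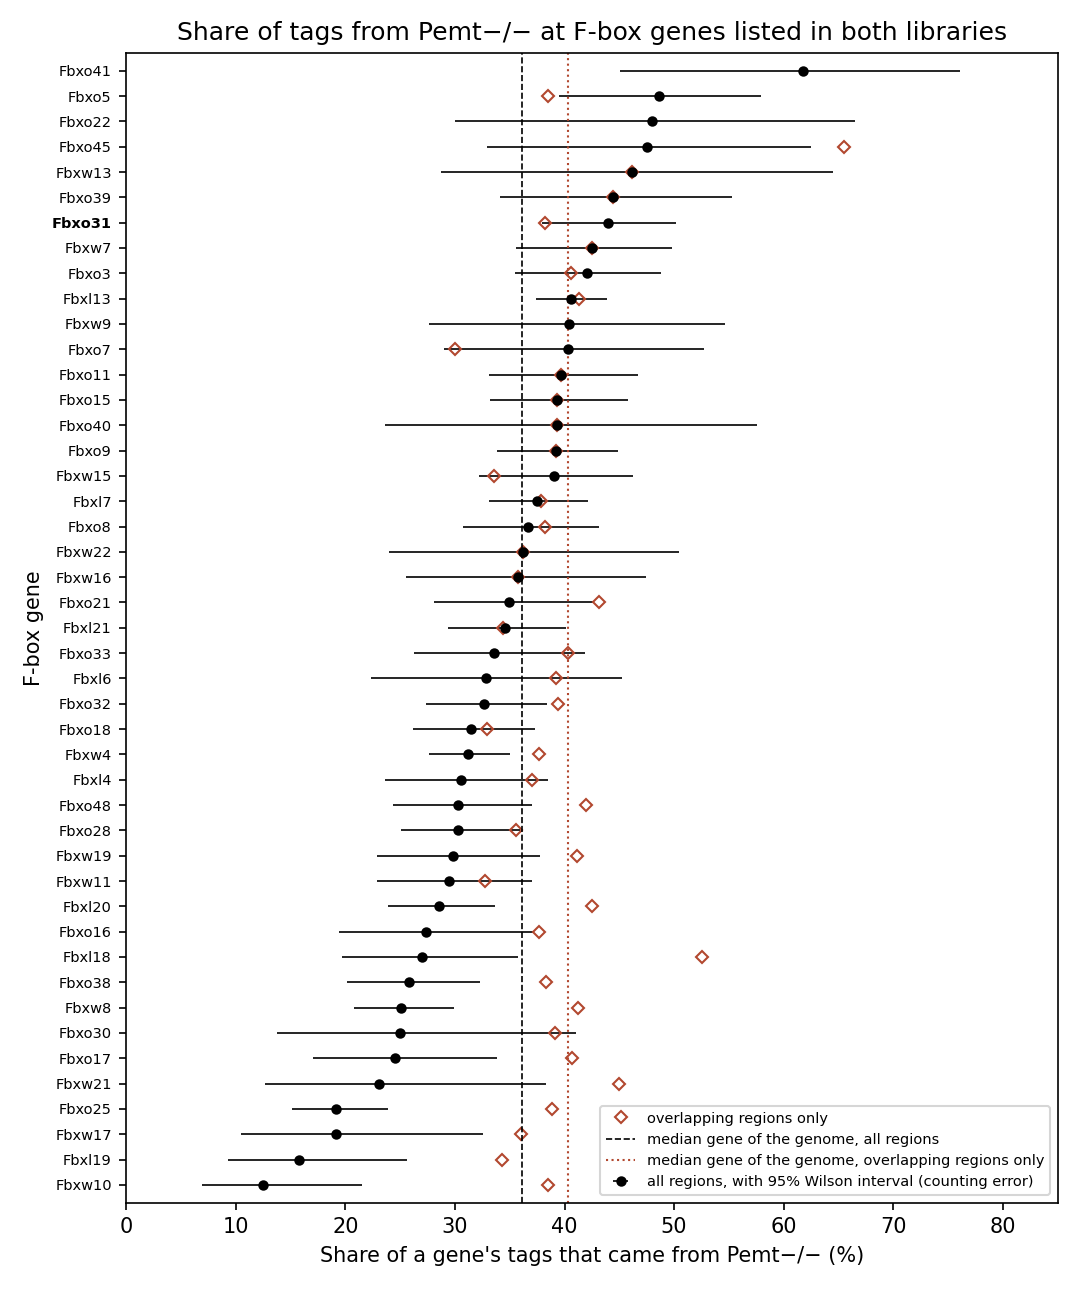
Share of a gene's tags that came from Pemt−/− (percent) at 45 of the 46 F-box genes listed in both libraries, over all regions (black points, with 95% Wilson intervals of counting error) and over overlapping regions only (open diamonds). The dashed line is the median gene over all regions (36.1%) and the dotted line the median gene over overlapping regions (40.3%). Most low points move up to near the dotted line as diamonds, and Fbxo31 moves from 44.0% to 38.3%.

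High were 5 members, where 12.6% of all genes were high. Fbxo41, a neuronal member, had 21 tags in Pemt−/− and 13 in Pemt+/+, none of them in overlapping regions, and a share of 61.8%. Fbxo5 followed with 53 and 56 tags (48.6%), Fbxo22 with 12 and 13 (48.0%) and Fbxo45, which acts at synapses, with 19 and 21 (47.5%). Fbxw13 with 12 and 14 tags (46.2%) completed the 5. Just below the limit were Fbxo39 with 36 and 45 tags and Fbxo31, whose ratios were 1.42 and 1.39 times that of the median gene. Only Fbxo41 and Fbxo5 of the 5 had an interval above the median gene, as did Fbxo31 (38.0 to 50.2%) and Fbxl13 (37.4 to 43.8%). Of the other 45 members, 29 had an interval that overlapped that of Fbxo31, so its 7th place of 46 is not a firm one.

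Low were 10 members, where 15.1% of all genes were low. Fbxw10 had the lowest share, 12.5%, with 10 tags in Pemt−/− and 70 in Pemt+/+. Fbxl19, which binds unmethylated CpG islands through a CXXC domain, had 12 and 64 tags (15.8%), Fbxw17 had 9 and 38 (19.1%) and Fbxo25 had 59 and 249 (19.2%). The other low members were Fbxl18, Fbxo17, Fbxo30, Fbxo38, Fbxw8 and Fbxw21, with shares between 23.1% and 27.0%. The low members had 4 of 21 Pemt−/− regions and 38 of 55 Pemt+/+ regions without a partner. Leaving out regions without a partner raised the share of each of the 10, to between 34.3% and 52.5%, and removing regions found in Pemt+/+ only raises a share by construction. At Fbxo25, 2 overlapping pairs held 16 and 43 tags in Pemt−/− and 33 and 60 in Pemt+/+, and 6 further Pemt+/+ regions held 17 to 43 tags each.

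In overlapping regions alone, the median member was at 39.2% (43 members with at least 20 tags, range 30.0 to 65.5%) and the median gene at 40.3%. By this measure 2 members were high (5.88% of all genes) and 1 was low (5.37% of all genes). The high ones were Fbxo45, with 19 tags in Pemt−/− against 10 in a pair upstream of the gene, and Fbxl18, with 31 against 28 tags in 2 pairs. The low one was Fbxo7, a gene mutated in a familial parkinsonism, with 12 tags against 28. Fbxo31 lay at 38.3% (31.5 to 45.5%), in 28th place of 43, below the median gene and above 34.2% of the genes. Its position above the median gene over all regions was thus not present in the regions found in both mice. Its place also moved with the regions that were used, from 2nd when regions paired with another gene were left out (75 of 124 tags, 60.5%) to 22nd of 35 when only regions in the upper 50% by score were used (35 of 121 tags, 28.9%, below the median gene of 36.6%). Leaving out regions paired with another gene removed the Pemt+/+ region at the 3′ end, with 37 tags, but not its Pemt−/− partner of 22 tags. With such partners left out together, 53 of 102 tags (52.0%) came from Pemt−/− and Fbxo31 was again 2nd.

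The 142 pairs of regions at F-box genes had a median ratio of 0.647, and all pairs had 0.682. At least 1.5-fold above the median pair were 13 (10.4% of all pairs) and at least 1.5-fold below it were 14 (11.2% of all pairs). The highest ratio was that of Fbxo45 (1.90), followed by a Fbxw7 pair inside the gene with 25 tags in Pemt−/− and 16 in Pemt+/+. The lowest ratio was found inside Fbxw4, with 8 tags against 25. Fbxw7 also had one of the lowest, downstream of the gene, with 14 tags against 42, so that pairs at 1 gene lay on both sides of the median. Other low pairs were at Fbxo8 (9 against 27 tags) and Fbxw11 (9 against 26), the latter a receptor for beta-catenin.

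**Figure D5:**
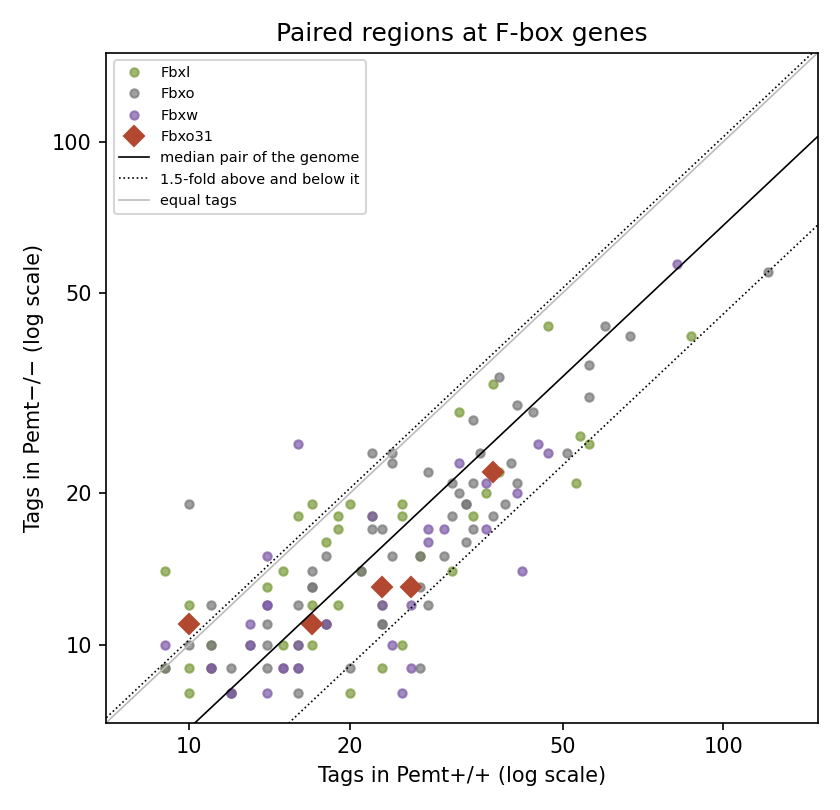
Tags in Pemt−/− against tags in Pemt+/+ for the 142 pairs of overlapping regions at F-box genes, on log axes, coloured by subfamily with Fbxo31 as diamonds. The solid line is the median pair of the genome (ratio 0.682), the dotted lines are 1.5-fold above and below it and the grey line marks equal tags. Of the 5 Fbxo31 pairs, 4 lie below the solid line.

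Among well known members, Fbxo32 (atrogin-1), which is linked to muscle wasting, had 89 tags in Pemt−/− and 184 in Pemt+/+. Its 5 Pemt−/− regions all had a partner, and 4 of its 9 Pemt+/+ regions had none. Fbxl21 had 102 and 193 tags. Fbxw11 had 46 and 110 tags, and Fbxo11, a receptor for Bcl6, had 77 and 117. Fbxw7 had 77 and 104 tags (42.5%, 35.6 to 49.8%) in 4 pairs. The intervals of Fbxl21, Fbxo32, Fbxw7, Fbxw11 and Fbxo11 all contained the 36.1% of the median gene. Fbxl2, Fbxl5 and Fbxo4 were among 25 F-box symbols of the RefSeq table not listed in the tables used here. Of 78 RefSeq F-box symbols 53 were listed, and of all protein-coding genes 64.6%, so a gene that is not listed cannot be read as unmethylated.

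Fbxw genes of chromosome 9 lie side by side in a run of 15, of which 8 were listed. They held 9 regions with 176 tags in Pemt−/− and 13 regions with 359 tags in Pemt+/+, a share of 32.9% (29.1 to 37.0%). Of these, 1 Pemt−/− region and 4 Pemt+/+ regions had no partner. The 1 in Pemt−/− lay upstream of Fbxw15 with 15 tags, and a Pemt+/+ region of 41 tags began 29 bp from it. Since genes of this run are near copies of each other, reads may have been placed at the wrong copy, and these values are uncertain.

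Shorter lists were also deposited, whose comparison is not stated. The shorter Pemt−/− list held 5 regions at 5 F-box genes, where 8.18% of the genes of the longer lists had one. They were at Fbxl7 (23 tags), Fbxo31 (11), Fbxo40 (10), Fbxo3 (9) and Fbxw11 (8), and the authors' false discovery rate was 100% for each. The longer Pemt+/+ list had no overlapping region at any of these 5. The shorter Pemt+/+ list held 14 regions at 13 members, where 18.7% of genes had one. The members were Fbxl4, Fbxl7, Fbxl12, Fbxl18, Fbxo7, Fbxo16, Fbxo18, Fbxo32, Fbxo33, Fbxw4, Fbxw8, Fbxw10 and Fbxw19, with Fbxl7 in both shorter lists. The regions' false discovery rates lay between 22.6% and 36.5%, and 12 of the 14 had no overlapping region in the longer Pemt−/− list. The strongest was inside Fbxo18 (now Fbh1, a DNA helicase) with 121 tags, against 55 in the overlapping Pemt−/− region. The share without overlap over all regions of the shorter lists was not computed. The missing overlaps at these 5 and 12 regions therefore cannot be read as a trait of F-box genes.

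Genes that work with the F-box proteins were described by lists, beside all genes, of which 12.6% were high and 15.1% were low. F-box genes under other symbols (Skp2, Btrc, Ccnf, Kdm2a and Kdm2b) were all listed, with 43 regions in Pemt−/− and 54 in Pemt+/+ and a median share of 38.6%. Of these, 1 was high and none was low. The high one was Kdm2a, a histone demethylase that binds CpG islands, with 28 tags against 11 and no overlapping region. Of 15 genes of the SCF core and its regulators 12 were listed, with 27 and 42 regions. Among the 10 that were listed in both mice with enough tags, the median share was 35.6%, and 2 were high and 1 was low. Ube2r2, a ubiquitin-conjugating enzyme, had 28 against 18 tags, Uba3, part of the enzyme that activates Nedd8, had 58 against 59, and the low one was Cops5 of the signalosome with 19 against 53. Cul1, the scaffold, had 10 against 16 tags in 1 overlapping pair, and Skp1a was listed in Pemt+/+ only, with 27 tags.

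Cyclin D1 itself (Ccnd1) was not listed in the tables used here. Of 13 genes of cyclin D1, its partners and its regulators, 11 were listed, with 50 regions in Pemt−/− and 76 in Pemt+/+ and a median share of 35.9%. High was 1 of them and low were 2, where 12.6% of all genes were high and 15.1% were low. Ccnd2, a sister cyclin, had 66 against 72 tags (47.8%), and the low ones were Cdkn1a, which encodes the cyclin-dependent kinase inhibitor p21, with 23 against 77 tags and Mdm2, the ligase for p53, with 67 against 179. Ccnd3, Cdk4 and Cdk6 lay near the median gene, at 35.9%, 36.8% and 36.4%.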

How the data were processed

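Liver DNA of 1 Pemt−/− and 1 Pemt+/+ mouse was enriched for methylated DNA and sequenced, per the labels after bisulphite conversion, which the Methods do not mention. The submitters' processing notes name CASAVA 1.8.2, Bowtie and the build mm9, and the region names are those of MACS. The settings, the control and the handling of duplicate reads are not given in the sources used here, and each of them changes tag numbers. In the lists deposited by the authors, tags are counts of reads within a region, with no normalization. Fold enrichment over background was deposited as a ratio, the false discovery rate as a percent and the p-value as a score of −10 times its log10, with 50 as the lowest.

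Regions were counted once per gene symbol. Where a region met several transcripts, the closest relation was used. Overlaps needed 1 bp (bedtools 2.31.1), and pairs overlapped one to one. Gene lengths and promoters came from RefSeq tables of GRCm38.p6, matched by identifier for all 54 members. Calculations used Python 3.11.15 with pandas 2.3.3, numpy 2.4.6 and scipy 1.17.1, and plots used matplotlib 3.10.9. The overlap of regions and the tag ratio of pairs were tested on simulated lists. Shares, places and positions at genes were not tested in this way. Wilson 95% intervals cover counting error only, and not variation between mice or libraries. They treat reads as independent molecules and are too narrow where reads are not. No test was run, for want of replicates. Columns of other samples numbered 0.

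The genes named are Fbxo31, the 5 members with most regions, the 4 with the highest and the 4 with the lowest share, members in a shorter list, at a 5′ end, in 1 library only or without overlap, and well known members. Others, such as members with the highest or lowest pairs, were named after their values were seen. The values of 1 member are not reported here on their own, though it is in all counts and medians. The members and lists were chosen with earlier results of these data known. Alternatives were the upper 50% of each list by score, overlap of 50% of both regions, equal list sizes, regions inside or overlapping a transcript and regions paired with no other gene. A scaled tag limit, overlapping regions only and the removal of both regions of a pair near another gene were chosen after seeing the data.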

Additional observations from a re-analysis of the deposited data

How the results depend on the processing

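No paired analysis was possible because there was a single library of each genotype, and for the same reason no library could be left out. Of the recomputed values 50 stayed the same and 38 moved. Counts and places were scored as the same within 1.5 times, and shares within their counting interval. The share of the median gene was the same within 5 percentage points. The median ratio of pairs was the same when it lay between the quartiles of the F-box pairs. Changes of direction were not scored. The share of Fbxo31 lay above the median gene over all regions (44.0% against 36.1%). It lay below the median gene with the upper 50% by score (28.9% against 36.6%) and in overlapping regions only (38.3% against 40.3%). Removing regions lowers counts by construction, and for shares and places the cause was not tested. With the upper 50% of each list by score, F-box regions were 76 in Pemt−/− and 135 in Pemt+/+, those without overlap 13 and 72 (53.3% in Pemt+/+), and the summed share from Pemt−/− 29.7%. At Fbxo31 2 and 3 regions were left, of which 0 and 1 were without overlap, and its share was 28.9%, in 22nd place. With lists of equal size, 55 regions (30.4%) in Pemt−/− and 72 (36.5%) in Pemt+/+ were without overlap, the summed share was 37.4%, and Fbxo31 kept 1 Pemt+/+ region without overlap. With regions inside or overlapping a transcript, 120 and 175 regions remained, and Fbxo31 had 5 and 4, with 1 Pemt+/+ region without overlap, in 2nd place by share. With regions paired with no other gene, Fbxo31 had 5 and 3 regions, 1 of the latter without overlap, and a share of 60.5%, in 2nd place. With their partners in the other library removed as well, it had 4 and 3 regions, 1 of the latter without overlap, and a share of 52.0%, again in 2nd place. With the scaled tag limit, which raised the tags a Pemt+/+ region needed, 52 Pemt−/− regions (28.7%) were without overlap. The share of all regions without overlap was computed for the full lists only (16.7% and 38.4%). Whether the F-box shares moved with those of all regions under these settings is therefore not known. In overlapping regions only, the summed share was 39.2% and Fbxo31 was in 28th place. Depth limits all of these values, since regions of under 8 and 9 tags are not in the lists.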
